A study of Homo sapiens with 6 samples.

Results

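The FAM83 genes, FAM83A to FAM83H, are a family of 8 protein-coding genes, and all 8 are listed by symbol among the 59050 genes of the count files. After a filter on low counts, 7 of them were tested among 17809 genes, and FAM83C was left out for want of reads. The family was chosen with the difference between the groups already known. The differences of its members, and the counts of members called, are therefore given as a description, without p-values, and nothing is supported with them.

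The data are RNA-seq read counts from 6 libraries of H2122 cells, an established line from a human lung cancer. By their labels, 3 came from cells with SMARCA4 knocked out and 3 from parental WT cells, and vehicle was the treatment in all 6. SMARCA4, also called BRG1, is a catalytic subunit of SWI/SNF remodelling complexes, and the comparison asks what differs when it is lost. Whether replicates were separate cultures is not stated, and the p-values therefore reflect only the spread among these samples, which may be technical. The titles of the 3 knockout libraries carry the number 1 and those of the parental libraries 1, 3 and 6, and the labels do not explain it. Should it stand for a clone, all knockout libraries would be of 1 clone, whose own traits and the knockout cannot be told apart.

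FAM83 proteins share a conserved amino-terminal domain that resembles phospholipase D but has no known catalytic activity. Through it they bind isoforms of casein kinase 1 and hold the kinase at particular places in the cell, while their carboxy-terminal parts differ widely. FAM83A and FAM83B are known as oncogenic intermediates of EGFR and RAS signalling in epithelial cancers. FAM83D binds HMMR and brings the kinase to the mitotic spindle. FAM83G, also called PAWS1, binds SMAD1 and acts in BMP and WNT signalling. FAM83H organises keratin filaments and is mutated in an inherited defect of tooth enamel, FAM83F is known to act on WNT signalling, and FAM83C and FAM83E are the least studied members.

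Levels are CPM, read counts scaled to a common library size by TMM, and differences are log2 fold changes of the knockout less the parental libraries. Libraries held 55120937 to 59917980 reads assigned to genes, so that 3 reads, taken as the limit of detection, stood for 0.0501 to 0.0544 CPM before TMM scaling. Such limits cover counting error only. SMARCA4 itself stood at 231.5, 214.5 and 335 CPM in parental and at 20.7, 19.3 and 24.9 CPM in knockout libraries. Parental replicate 3 stood apart from the other parental libraries over many genes. Counts of genes called and log2 fold changes of the tested members are given with and without it, as are other named genes whose call it changed. The summed level of 6 epithelial markers ran from 6930 to 7700 CPM in parental and from 3160 to 3420 CPM in knockout libraries. The 6 differed unevenly, with ratios of parental to knockout means of 61.4 for CDH1, 42.3 for KRT19 and 4.99 for EPCAM. These ratios were 1.8 for KRT7, 1.62 for KRT8 and 1.34 for KRT18. Of 3 markers of the lung adenocarcinoma lineage, NKX2-1 and SFTPB stayed under 1 CPM in every library, so the labelled lung origin was not visible in them. The third, NAPSA, was low, at 0.858, 1.12 and 0.51 CPM in parental and 0.955, 1.09 and 1.49 CPM in knockout libraries. The haematopoietic marker PTPRC had 0 reads in all 6 libraries, all 3 endothelial markers stayed under 1 CPM, and 5 fibroblast markers summed to 39.2 to 110.0 CPM (parental) and 53.3 to 58.0 CPM (knockout). Those sums hold opposite differences, since LUM went from at most 0.385 to at least 25.01 CPM and COL3A1 from at most 0.387 to at least 4.99 CPM, while COL1A1 went from 38.6, 45.9 and 109 CPM to at most 25.5 CPM. The part of these markers in the results below was not tested.

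Sequences upstream of the start site were found for 4 of the 8 members in RefSeq (GRCh38.p14), and 3 are shown because their genes behaved differently here: FAM83B and FAM83E were far lower in the knockout libraries, and FAM83G overlapped between the groups. The FAM83B stretch is chr6:54846521-54846770 on the plus strand, the FAM83E stretch chr19:48615077-48615326 on the minus strand, and the FAM83G stretch chr17:19004805-19005014 on the minus strand. Each is written 5′ to 3′ and ends next to the RefSeq start site, except that of FAM83G, which ends 41 bases before it because the 40 bases in between are annotated as exon. Capitals mark CAGGTG, the letters of the E-box bound by ZEB and SNAI repressors, and TGANTCA, each searched on both strands. TGANTCA, with any base at N, is a loose form of the letters bound by AP-1 factors.
FAM83B: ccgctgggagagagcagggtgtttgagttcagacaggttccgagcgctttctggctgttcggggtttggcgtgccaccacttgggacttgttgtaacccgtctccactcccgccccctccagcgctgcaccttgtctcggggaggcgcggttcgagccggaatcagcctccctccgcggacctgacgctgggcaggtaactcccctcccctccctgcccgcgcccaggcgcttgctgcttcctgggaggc
FAM83E: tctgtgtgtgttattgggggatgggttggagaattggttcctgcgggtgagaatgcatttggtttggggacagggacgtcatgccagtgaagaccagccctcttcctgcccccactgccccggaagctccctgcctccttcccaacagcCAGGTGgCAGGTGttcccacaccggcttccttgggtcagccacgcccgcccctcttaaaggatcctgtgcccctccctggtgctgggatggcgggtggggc
FAM83G: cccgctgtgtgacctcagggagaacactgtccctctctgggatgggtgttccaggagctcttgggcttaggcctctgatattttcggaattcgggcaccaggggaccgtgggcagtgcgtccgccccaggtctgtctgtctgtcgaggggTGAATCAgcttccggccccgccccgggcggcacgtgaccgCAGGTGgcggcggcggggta
The FAM83E stretch held 2 CAGGTG matches, which begin 101 and 94 bases before the start site and are separated by a single base. Among 35116 RefSeq promoters, 17.5% held at least 1 match in the same 250 bases and 2.53% held 2 or more. The FAM83B stretch held none, and that of FAM83C, not shown, held 1 at 90 bases. The FAM83G promoter held 1, at 60 bases before the start. It also held 2 TGANTCA matches, TGAATCA at 100 bases and TGAGTCA at 27 bases, the latter in the exon bases not shown. At least 1 TGANTCA was found in 6.57% of promoters. Neither AACCNGTT, the letters bound by grainyhead-like factors (1.49% of promoters), nor TATAAA (10.7%) was found in any of the 4 promoters. CG dinucleotides numbered 19 in FAM83B, 22 in FAM83G and 7 in FAM83E, against a median of 11 over all promoters. A match is a run of letters and not a measured binding site. The RefSeq start of FAM83E lies 222 bases upstream of the one in GENCODE 29.

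Compared per kilobase of annotated exon, FAM83H and FAM83A made up most of the family's transcripts in every library. In parental replicates 1 and 2 the order was FAM83H (82.7 and 79.4 CPM per kilobase), FAM83A (45.0 and 45.4), FAM83G (15.5 and 16.3), FAM83E (10.9 and 12.5), FAM83B (7.83 and 6.51), FAM83D (4.71 and 4.14) and FAM83F (1.19 and 1.22), with FAM83C last. In parental replicate 3 FAM83D moved up to 44.6 CPM per kilobase, next to FAM83A at 46.3, while FAM83E and FAM83B stood close together at 5.35 and 5.12. In the knockout libraries FAM83H (37.3 to 38.8) and FAM83A (35.6 to 39.7) overlapped. Which of the pair is higher there depended on the gene length used, since FAM83A had the higher mean, 43.5 against 38.2, when the longest transcript was taken in place of all exons. Below them came FAM83G (11.6 to 12.0), FAM83D (6.0 to 6.71), FAM83B (0.776 to 0.986) and FAM83E (0.119 to 0.179), and FAM83C and FAM83F were lowest. Summed over the 8 members, the level was 170.0 ± 6.2 CPM per kilobase in the parental and 94.6 ± 3.0 in the knockout group (SD, n = 3 each). The parental libraries gave similar sums, 168, 166 and 177, although their makeup differed, as FAM83D took 2.5% of the sum in parental replicate 2 and 25.2% in parental replicate 3. In the knockout, FAM83H and FAM83A took mean shares of 40.4% and 39.2%.

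**Figure D1:**
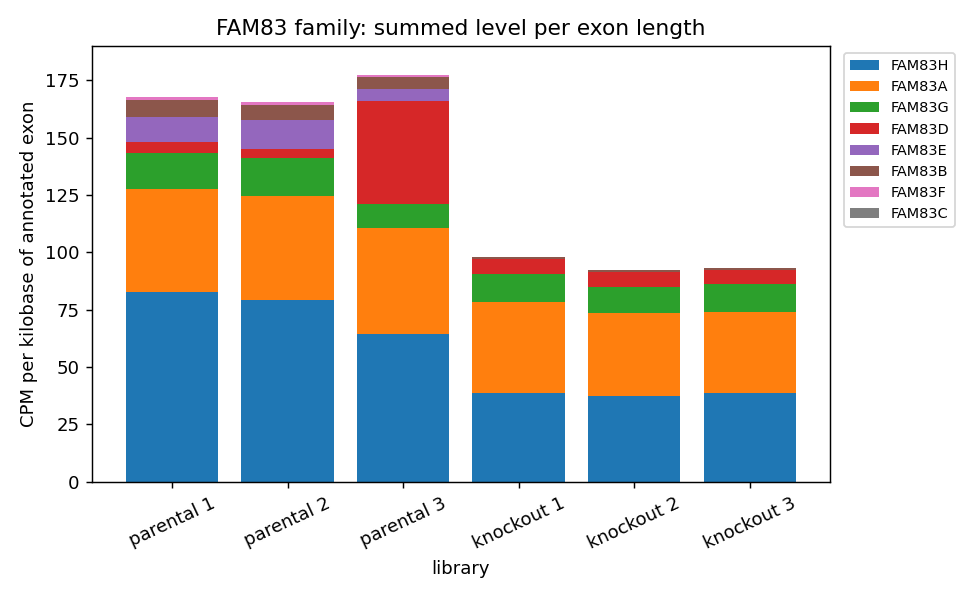
Summed level of the 8 FAM83 genes in each library, in CPM per kilobase of annotated exon, stacked by gene. The parental bars reach 168, 166 and 177 and the knockout bars 98.1, 92.5 and 93.3, and FAM83D takes up 44.6 of the bar of parental replicate 3.

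At an adjusted p under 0.05 in edgeR's quasi-likelihood test, FAM83B, FAM83E, FAM83F and FAM83H, 4 of the 7 tested members, fell in the knockout. Of all genes tested, 27.6% passed, 14.3% falling and 13.3% rising. No member rose, and none did so at an unadjusted p under 0.05, in DESeq2 or in limma-voom. FAM83E and FAM83F had log2 fold changes of -4 or lower, as had 2.64% of genes tested. Without parental replicate 3, 6 of 7 members fell and 1, FAM83D, rose, where 61.6% of all genes passed, 30.8% falling and 30.8% rising. FAM83A passed as well with RLE factors and with DESeq2, which made 5 members that fell. Knockout and parental libraries did not overlap for 5 of the 7, namely FAM83A and the 4 that fell, against 49.8% of all genes tested. The median log2 fold change of the 7 was -1.49, against 0.02 over all genes. This contrast is the one the family was chosen on, so nothing is read from these shares. In bulk RNA, fewer cells that express a gene and less RNA per cell cannot be told apart.

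**Figure D2:**
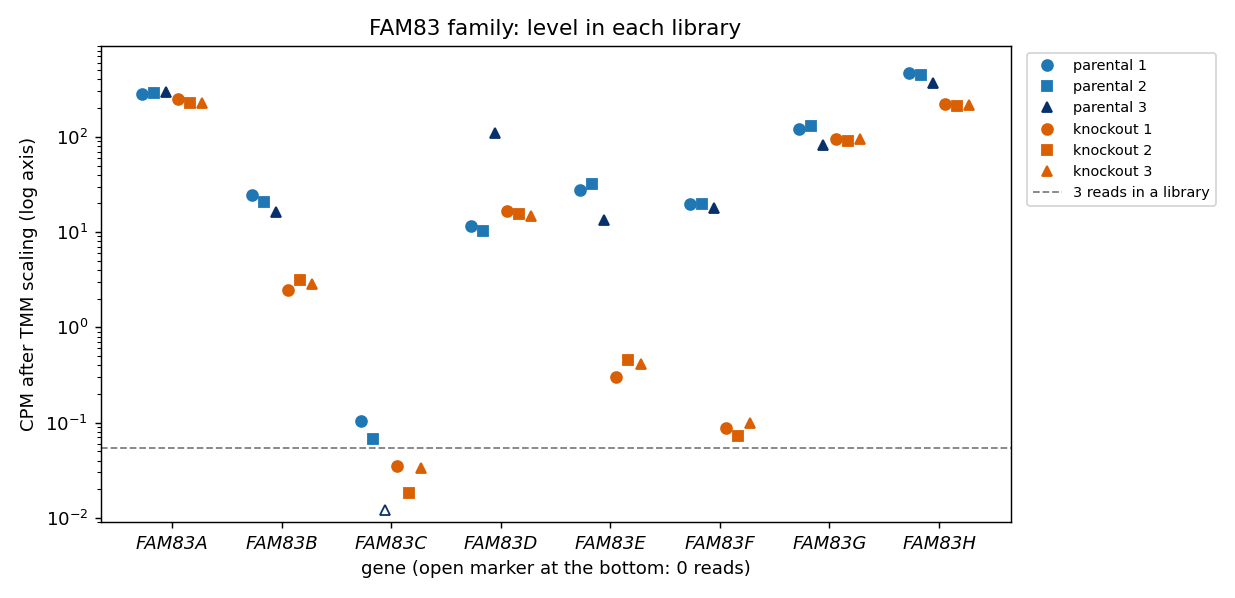
Level of each FAM83 gene in each library, in CPM on a log axis. Blue and dark blue markers are parental libraries and orange markers knockout libraries. The dashed line is the highest level of 3 reads in any library, before TMM scaling. FAM83F falls from 17.7 to 19.9 CPM in the parental libraries to between 0.0726 and 0.0994 CPM, and FAM83D is high only in parental replicate 3.

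FAM83F (chromosome 22, 39994949 to 40043529, GENCODE 29 on GRCh38) showed the lowest log2 fold change of the family. Its reads numbered 1114, 1191 and 1009 in parental libraries but 5, 4 and 6 after the knockout. That is 19.5, 19.9 and 17.7 CPM against 0.0884, 0.0726 and 0.0994 CPM. Every knockout library was just above the limit of 3 reads, and the 3 parental libraries, replicate 3 included, were close to each other. The log2 fold change was -7.74 (SE 0.19), a ratio of mean CPM of 220.0, and 0.427% of all genes tested had a value as low or lower. Leaving out any 1 library kept it between -7.84 and -7.62, and it was -7.83 without parental replicate 3.

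FAM83E (chromosome 19, 48600810 to 48614854) was the next lowest. Parental libraries gave 27.5, 31.7 and 13.5 CPM, and knockout libraries 0.3005, 0.454 and 0.414 CPM from 17, 25 and 25 reads. Parental replicate 3 was the lowest of its group, yet far above all knockout libraries. The log2 fold change was -5.95 (SE 0.42), and 1.15% of genes tested had a value as low or lower. It was -6.29 without parental replicate 3.

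FAM83B (chromosome 6, 54846771 to 54942022), a member tied to EGFR and RAS signalling, kept a measurable level in the knockout. Its values were 2.46, 3.12 and 2.85 CPM against 24.8, 20.6 and 16.2 CPM in the parental libraries. The groups did not overlap, and parental replicate 3 was again the lowest parental library. The log2 fold change was -2.87 (SE 0.21), ranging from -3.06 to -2.72 with 1 library left out. The lowest value, -3.06, was that without parental replicate 3.

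FAM83H (chromosome 8, 143723933 to 143733801), the keratin-organising member, was the most abundant member in every parental library by exon length. It fell from 468, 449 and 365 CPM to 219.5, 211 and 218 CPM. The 3 knockout libraries were within 0.06 log2 units of each other, and the lowest parental library was replicate 3. The log2 fold change was -0.98 (SE 0.13), which is close to a ratio of 1.98 between the group means. Of all genes tested, 11.9% had a log2 fold change as low or lower. FAM83H was at -1.13 without parental replicate 3.

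FAM83A (chromosome 8, 123178960 to 123210079), the other member tied to EGFR signalling, differed least from library to library. Its levels were 284.5, 287 and 292 CPM in parental cells and 251, 229 and 225 CPM after the knockout. The groups did not overlap, but the log2 fold change was small at -0.29 (SE 0.10). Without parental replicate 3 it was -0.33, and FAM83A then passed. FAM83A and FAM83B, which share this known role, thus stood at ratios of 1.23 and 7.31 between parental and knockout means.

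FAM83G (chromosome 17, 18968789 to 19004804), the SMAD1-binding member, had 122, 129 and 81.6 CPM in parental cells and 94.6, 91.3 and 94.5 CPM after the knockout. Parental replicate 3 was below all knockout libraries and the other parental libraries were above them, so the groups overlapped. The log2 fold change was -0.25 (SE 0.18), and -0.47 without parental replicate 3.

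FAM83C (chromosome 20, 35285731 to 35292401) had no more than 6 reads in any library, with 6, 4 and 0 in parental cells and 2, 1 and 2 after the knockout. These counts lie around the limit of 3 reads, and no difference was detectable at this depth.

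**Figure D3:**
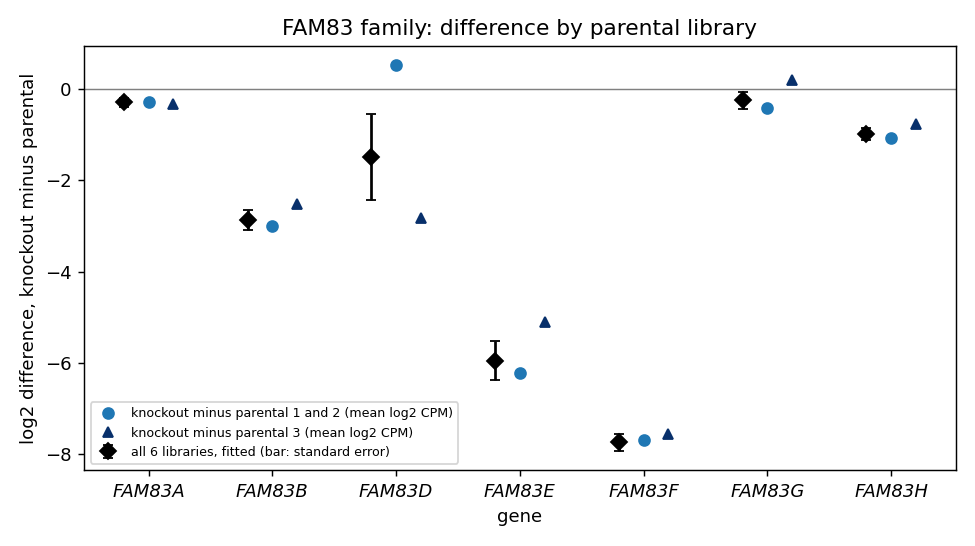
Log2 difference of the knockout from the parental libraries for the 7 tested members; black diamonds are fitted values over all 6 libraries with standard errors, circles use parental replicates 1 and 2, and triangles parental replicate 3 alone. FAM83D changes sign, at 0.52 and -2.82, as does FAM83G, at -0.42 and 0.20, while FAM83F stays at -7.70 and -7.55.

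FAM83D (chromosome 20, 38926312 to 38953106), the spindle member, differed more within the parental group than between the groups. Parental libraries gave 11.7, 10.3 and 110.4 CPM, and knockout libraries 16.6, 15.5 and 14.9 CPM. Parental replicate 3 was thus far above all other libraries, and the other parental libraries were below the knockout. The log2 fold change over all libraries was -1.49 (SE 0.94), and it turned to 0.47 (SE 0.08) without parental replicate 3. On the log2 scale parental replicate 3 exceeded the mean of the other parental libraries by 3.34, and 61 of 17809 genes, FAM83D among them, had a difference as high or higher. The other tested members lay between -1.12 (FAM83E) and 0.03 (FAM83A) on that measure.

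Genes of the mitotic spindle and cell division moved with FAM83D across these libraries. All 22 listed mitotic genes were higher in parental replicate 3 than the mean of the other parental libraries, by 2.06 (NUSAP1, which was under 1 CPM in all libraries) to 3.86 log2 units with a median of 3.11, against a median of 0.00 over all genes tested. HMMR, the spindle protein that FAM83D binds, had 9.07, 6.88 and 98.5 CPM in parental and 16, 15.5 and 14.97 CPM in knockout libraries, so it ranked the parental libraries as FAM83D did. MKI67, the proliferation marker, reached 79.3, 65.5 and 682.5 CPM in parental and 123, 118 and 103 CPM in knockout libraries. TOP2A, a topoisomerase of dividing cells, stood at 62.3, 53.3 and 394 CPM against 112, 113 and 108 CPM. None of the 22 passed edgeR's test between the groups, and none had an unadjusted p under 0.05 or passed in limma-voom or DESeq2, which gave 15 of them no adjusted p. Their median log2 fold change was -1.28. Without parental replicate 3, 21 of 22 rose, with a median of 0.60, where 30.8% of all genes rose. DHX35, the protein-coding gene 9.19 kb downstream of FAM83D, did not share the pattern, at 15.5, 15.7 and 16.1 CPM in parental and 19.6, 17.8 and 19.2 CPM in knockout libraries. The part of cell division in the FAM83D values was not tested.

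**Figure D4:**
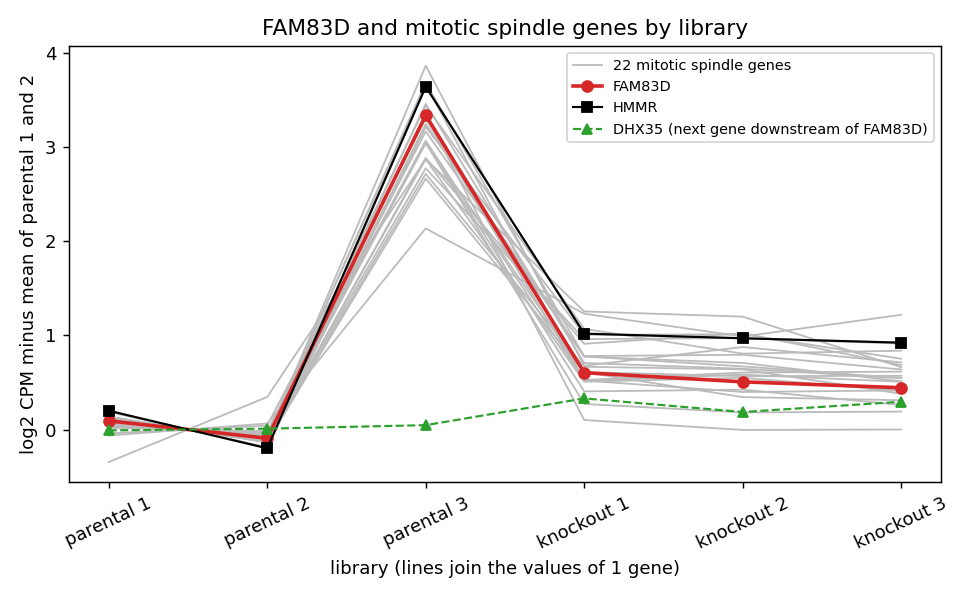
Log2 CPM of FAM83D, HMMR, DHX35 and the 22 listed mitotic spindle genes in each library, less the mean of parental replicates 1 and 2. FAM83D (3.34) and HMMR (3.64) lie among the grey mitotic genes in parental replicate 3, whereas DHX35 is at 0.05 (values drawn from CPM with no prior count).

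The genes beside the members differed in whether they followed them. FAM83E lies between SULT2B1, a sulfotransferase gene 1.39 kb away, and RPL18, a ribosomal protein gene 0.474 kb away. SULT2B1 fell from 23.8, 25.2 and 48.9 CPM to 0.371, 0.1996 and 0.315 CPM (log2 fold change -6.77, SE 0.44, edgeR adjusted p = 0.000201). RPL18 did not pass (0.02, edgeR adjusted p = 0.964). Within the parental group the 2 neighbours that were both low in the knockout went opposite ways, since parental replicate 3 was the lowest for FAM83E and the highest for SULT2B1. Beside FAM83H, IQANK1 begins 0.339 kb away and fell from 79.0, 81.3 and 67.7 CPM to 17.0, 17.7 and 18.8 CPM (-2.09, SE 0.12, edgeR adjusted p = 0.000105), while the kinase gene MAPK15, 1.48 kb on the other side and under 1 CPM in every library, was at -0.69 and did not pass. Beside FAM83F, TNRC6B, a gene of microRNA silencing 1.29 kb away, was at 0.30 and did not pass (edgeR adjusted p = 0.319), and GRAP2 had at most 5 reads in a library. Near FAM83C, EIF6, a ribosome assembly factor gene, fell by 0.64 on the log2 scale (edgeR adjusted p = 0.00516), and UQCC1 was at -0.11. C8orf76 (-0.23) beside FAM83A and PRPSAP2 (-0.15) beside FAM83G did not pass. TBC1D31, on the other side of FAM83A, was at 0.45 and did not pass, but rose by 1.26 without parental replicate 3, with 3.94, 3.5 and 12.7 CPM in parental and 8.78 to 9.42 CPM in knockout libraries. Without that library RPL18 (0.28), DHX35 (0.22) and UQCC1 (0.15) also passed in the upward direction, and MAPK15 stood at -0.30. The neighbours TINAG, HCRTR2, PPP1R16B and GRAP had too few reads to be tested. FAM83B, FAM83D, FAM83E and FAM83H share no exon bases with another annotated gene. For FAM83A, FAM83G, FAM83F and FAM83C the shared part is 9.07%, 6.72%, 2.82% and 0.827% of exon bases, and whether the counting used strand is not stated. Genes overlapping FAM83A and FAM83G had few reads beside them, since AC068228.1 had at most 33 reads in a library where FAM83A had 16617, and SLC5A10 had at most 36 where FAM83G had 7683. FAM83C-AS1, which shares 26 exon bases with FAM83C, had as few reads, 10 over the parental and 5 over the knockout libraries for each. Library by library they differed, with 6, 4 and 0 parental reads for FAM83C and 1, 2 and 7 for FAM83C-AS1. Both had too few reads to be tested.

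**Figure D5:**
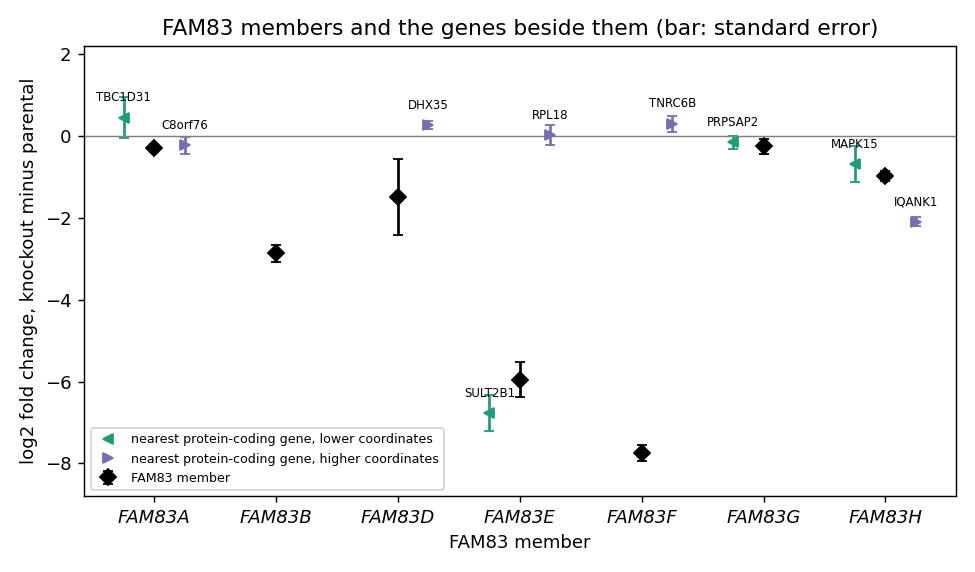
Log2 fold change, knockout minus parental, of each tested FAM83 member (diamond) and of its nearest protein-coding genes on either side that passed the low-count filter (triangles), with standard errors. SULT2B1 (-6.77) lies beside FAM83E (-5.95) and IQANK1 (-2.09) beside FAM83H (-0.98), while RPL18 (0.02), TNRC6B (0.30) and DHX35 (0.26) lie near 0.

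FAM83 proteins bind isoforms of casein kinase 1. The list used here holds the whole casein kinase 1 gene family, and binding of each isoform by a FAM83 protein is not implied. Of 7 casein kinase 1 genes 6 were tested, and CSNK1A1L had 0 reads in all libraries. A single one fell and 5 did not pass, with a median log2 fold change of -0.01, where 14.3% of all genes fell. None rose, also by unadjusted p under 0.05, DESeq2 or limma-voom. CSNK1A1, the isoform bound by all members, had a mean of 215 ± 35.3 CPM in parental and 198 ± 3.23 CPM in knockout libraries (SD, n = 3 each; -0.12, edgeR adjusted p = 0.591). CSNK1D was at 0.10 and CSNK1E at 0.16, CSNK1G2 at -0.25 and CSNK1G3 at 0.15, and none of these passed. The sign of CSNK1D and CSNK1E changed without parental replicate 3, to -0.11 and -0.06, and neither passed there. CSNK1G1 fell from 67.8 ± 7.61 to 50.03 ± 2.65 CPM (SD, n = 3 each; -0.44, edgeR adjusted p = 0.036), a call lost when any library other than parental replicate 3 was left out (edgeR adjusted p up to 0.147). Without parental replicate 3, 3 of the 6 fell, namely CSNK1G1, CSNK1A1 (-0.30) and CSNK1G2 (-0.23), where 30.8% of all genes fell.

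Of 18 other reported partners of FAM83 proteins, 2 fell, 3 rose and 13 did not pass, where 27.6% of all genes passed. CD2AP, an adaptor of the actin cytoskeleton that binds FAM83G, fell from 141 ± 15.5 to 85.4 ± 6.60 CPM (SD, n = 3 each; -0.73, edgeR adjusted p = 0.00683). SMAD1, the other partner of FAM83G, was at 18.5 ± 2.96 CPM in the parental and 16.7 ± 1.64 CPM in the knockout group (SD, n = 3 each; -0.15, edgeR adjusted p = 0.535). Among the keratins that FAM83H organises, KRT8 fell from 1376, 1441 and 2151 CPM to 1097, 1010.0 and 952 CPM (-0.70, edgeR adjusted p = 0.0467), and KRT18 was at -0.42 and did not pass (edgeR adjusted p = 0.0962). EGFR, upstream of FAM83A and FAM83B, gave 964, 935.5 and 107 CPM in parental and 698, 727 and 660.5 CPM in knockout libraries. It was thus low in parental replicate 3 alone, and leaving that library out moved the log2 fold change from 0.06 to -0.50. Among those that rose was CTNNB1, the WNT effector beta-catenin, by 0.54 (edgeR adjusted p = 0.0228). The call of KRT8 was lost when any library other than parental replicate 3 was left out (edgeR adjusted p up to 0.169), and that of CTNNB1 without any knockout library and without parental replicate 2 (up to 0.0988). Without parental replicate 3, 11 of the 18 fell and 6 rose, where 61.6% of all genes passed, and SMAD1 (-0.28) and KRT18 (-0.31) were among those that fell.

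Output transcripts were listed for the EGFR, RAS and BMP pathways in which members act. Of 18 transcripts of EGFR and RAS-ERK output, 4 fell, 1 rose and 13 did not pass, with a median of -0.10, where 27.6% of all genes passed. DUSP5, a nuclear ERK phosphatase, fell from 99.96 ± 34.1 to 13.2 ± 0.376 CPM (SD, n = 3 each; -2.93, edgeR adjusted p = 0.000816). DUSP6 and EGR1 were at -2.58 and -2.73, SPRY1, named after its values were seen, at -0.94, and ETV5 at 1.25. These 4 calls were lost without any one knockout library (edgeR adjusted p up to 0.128), those of DUSP6, EGR1 and SPRY1 also without parental replicate 1, and those of DUSP6 and EGR1 without parental replicate 2. The list's median difference of parental replicate 3 from the other parental libraries was -0.96, and without it 10 fell and 4 rose, where 61.6% of all genes passed. Of 10 tested transcripts of BMP-SMAD output, 5 rose and 5 did not pass, with a median of 1.48, where 13.3% of all genes rose. None fell, also by unadjusted p under 0.05, DESeq2 or limma-voom. Without parental replicate 3, 9 rose and 1 fell, where 30.8% of all genes rose and 30.8% fell. ATOH8, a transcription factor gene induced by BMP, rose from 1.006 ± 0.0728 to 8.06 ± 1.04 CPM (SD, n = 3 each; 3.0, edgeR adjusted p = 0.000128), ID3 by 2.1, ID4 by 3.02 and SMAD6, an inhibitory SMAD, by 2.32 (3.0 without parental replicate 3). The fifth was ID2 at 1.54, named after its values were seen; its call did not hold when any knockout library was dropped, or without parental replicate 1 (edgeR adjusted p up to 0.0734), and that of SMAD6 without knockout replicate 1 or 3 (up to 0.0516).

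Likeness of pattern was measured as the Euclidean distance between centred log2 CPM values over the 6 libraries, among 10982 genes with a mean of at least 5 CPM. Since groups and libraries are shared by all genes, it is a description only. The 3 genes closest to FAM83F were ESRP1, an epithelial splicing regulator (distance 0.38), OVOL1, an epithelial transcription factor (0.45), and AP1M2, an epithelial sorting adaptor (0.54), with log2 fold changes of -7.44, -7.58 and -8.05. All 3 belong to a list of 24 epithelial regulators and junction genes, of which 22 fell, where 14.3% of all genes fell. The other 2, OVOL2 and DSP, named after their values were seen, did not pass, and the list's median was -4.55. Without parental replicate 3, 22 of the list fell as well, where 30.8% of all genes fell. Beside AP1M2, the smallest adjusted p were those of the membrane protease ST14 (-4.79), the tight junction gene MARVELD3 (-5.44) and the keratin gene KRT19 (-5.40). None of the 24 rose, also by unadjusted p under 0.05, DESeq2 or limma-voom. Among the 50 genes closest to FAM83F, 7 were of that list, and among the 50 closest to FAM83E, 5. That list had 24 genes among the 10982 candidates. Since the list was chosen with earlier results of these data known, nothing is read from its shares. The genes closest to FAM83E were DOK7 (0.41), SEMA5A (0.43) and TINAGL1 (0.52). Closest to FAM83D were the mitotic genes BUB1 (0.15), DLGAP5 (0.15) and NEK2 (0.23), and 14 of its 50 closest genes were of the mitotic list, which had 20 genes among the candidates. FAM83B was closest to FAM110C (0.22), AC010503.4 (0.29) and WNT5A, a WNT ligand (0.39). FAM83H was closest to C15orf39 (0.07), ZDHHC13 (0.09) and ABRACL (0.09), FAM83A to MAPK14 (0.06), DAD1 (0.07) and ARF5 (0.07), and FAM83G to MAGED2 (0.05), DGCR2 (0.07) and MYD88 (0.08). Small distances are easy to reach for members that differ little between libraries. Of 7 tested mesenchymal regulators, 2 rose, 2 fell and 3 did not pass, where 27.6% of all genes passed. The E-box repressor ZEB1 (4.43) and VIM (6.77) rose, and PRRX1 (-2.98, and -2.16 without parental replicate 3) and FN1 (-2.44) fell. SNAI1 (0.25), SNAI2 (-1.69) and CDH2 (-2.44), named after their values were seen, did not pass. Against parental replicates 1 and 2 alone, their log2 differences were 1.62, -2.24 and -3.0. SNAI2 had 57.5, 58.2 and 2.9 CPM in parental and 12.7, 12.3 and 11.6 CPM in knockout libraries. Without parental replicate 3, 4 of 8 tested fell and 3 rose, where 61.6% of all genes passed. The falls of PRRX1 and FN1 did not hold when any knockout library was dropped (edgeR adjusted p up to 0.0977 and 0.0627). The part of the epithelial and mesenchymal genes in the levels of FAM83 members was not tested.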

How the data were processed

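For each library the authors deposited a file of raw read counts by gene symbol, whole numbers with no scaling. TopHat2 2.1.1, HTSeq 0.11.0 and hg38 are named in the submitters' processing notes. Which annotation and strand setting were used is not given in the sources used here. Unassigned reads, in 5 classes, made up 13.8% to 15.3% of each file and were left out.

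Counts were filtered with filterByExpr, given TMM factors and fitted by group alone in edgeR 4.0.16 (R 4.3.3) with its two-sided quasi-likelihood test, robust option on, and Benjamini-Hochberg adjustment over 17809 genes. Standard errors come from the F value. Log2 CPM used a prior count of 0.5. Positions and lengths are from GENCODE 29, promoters from RefSeq. The fit was tested on simulated data. Alternatives were RLE and upper-quartile factors, other low-count filters, DESeq2 1.42.0, limma-voom (limma 3.58.1), the replicate number as a block, and each library left out. Members and lists were chosen with earlier results of these data known, so counts of list genes called are a description. Named genes were all members, all casein kinase 1 genes, direct partners, neighbours, the 3 closest genes per member, and up to 4 passing genes per list with the smallest adjusted p, or, in lists with none, the 2 most abundant genes; some of these are not reported here.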

Additional observations from a re-analysis of the deposited data

How the results depend on the processing

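Among the FAM83 genes, FAM83B, FAM83E, FAM83F and FAM83H were called as falling in all alternatives run. The number of members that fell was 4 to 6 and that rose 0 to 1 with 1 library left out. These are refits of the values the family was chosen on, so they describe the processing and give no further support. Without parental replicate 3, several log2 fold changes changed sign, and the cause was not tested. With each library left out in turn, FAM83D ranged from -1.97 to 0.47, MKI67 from -1.74 to 0.61, TOP2A from -1.04 to 0.90, HMMR from -1.80 to 0.91, EGFR from -0.50 to 0.41 and UQCC1 from -0.25 to 0.15. Leaving out 1 library gave these ranges of genes that fell and rose: 0 to 3 and 0 to 0 for casein kinase 1, 1 to 11 and 1 to 6 for the other partners, 0 to 0 and 0 to 21 for mitotic genes, 1 to 10 and 0 to 4 for EGFR and RAS-ERK output, 0 to 1 and 3 to 9 for BMP-SMAD output, 21 to 22 and 0 to 0 for epithelial genes, 0 to 4 and 2 to 3 for mesenchymal regulators, and 1471 to 5660 and 1221 to 5665 for all genes. Casein kinase 1 genes that fell became 0 with upper-quartile factors. Of the other partners, 4 fell with DESeq2 and 1 rose with no low-count filter. Of EGFR and RAS-ERK output, 2 fell with limma-voom, and 1 mesenchymal regulator fell with at least 1 CPM in 3 libraries. With the replicate number as a block, 1662 genes fell and 1378 rose, casein kinase 1 genes that fell became 0, other partners that fell 1 and that rose 1, and EGFR and RAS-ERK transcripts that fell 2. Deviations of same-numbered libraries from their group means correlated at -0.041, 0.002 and -0.063. These values cannot show whether such libraries were paired, since parental replicate 3 set most of the parental deviations. Over all settings the median log2 fold change of all genes ran from -0.05 (no low-count filter) to 0.07 (upper-quartile factors). DESeq2 gave no adjusted p for FAM83D. With a minimum mean of 1 CPM, FAM83B, FAM83D and FAM83E shared 2 of their 3 closest genes with those named and the other tested members all 3. FAM83F in the knockout rests on 4 to 6 reads per library and FAM83E on 17 to 25, which limits their precision.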

Other observations

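The RNAs named after the family were near the limit of detection. Reads of FAM83A-AS1 numbered 0, 3 and 2 in parental cells and 4, 2 and 3 after the knockout, and those of FAM83C-AS1 1, 2 and 7 against 2, 3 and 0. TINAG, the nearest protein-coding gene on the lower-coordinate side of FAM83B at 457 kb, had 1, 5 and 44 reads in parental cells and 0 in each knockout library, so that most of its reads lay in parental replicate 3.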
